A study of Drosophila melanogaster with 6 samples.

Results

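The Imd pathway signalling genes are the intracellular core of a humoral immune pathway of Drosophila, followed here in the larval body wall of tumour-bearing and tumour-free larvae. The 8 genes were chosen by name, as imd, Fadd, Dredd, Tab2, key, ird5, Rel and pirk, out of 11621 genes in the table. A total of 7 were found by the listed symbol. Fadd was listed under its older symbol BG4 and was found through its FlyBase identifier FBgn0038928. All 8 passed the filter on low counts, and none had counts identical to those of another gene.

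RNA was sequenced from eviscerated larval cuticles with their body wall muscles, pooled over several larvae per sample. There were 3 tumour-bearing samples, collected 10 days after egg laying, and 3 control samples, collected 7 days after egg laying. The tumour-bearing larvae carried y and w, the eye-disc recombinase ey-flp, the reporter act5C>y+>GFP with UAS-RasV12, and FRT82B with tub-gal80 over FRT82B with scrib1. The control larvae were w1118. Because ey-flp acts in the eye disc, the RasV12, scrib1 clones (MARCM) arise there, whereas the sampled body wall is host tissue that carries the same transgenes and 1 copy of scrib1. Age, genotype and tumour change together in these samples and cannot be told apart, and the column headers also give each sample a lane of its own. The sources do not say clearly whether rearing temperature differed between the groups, and if it did it cannot be told apart either. It is not stated whether the 3 samples of a group were grown as independent cultures. The p-values therefore cover the sample-to-sample spread seen here, part or all of which may be technical.

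In the Imd pathway, bacterial peptidoglycan binds receptors such as PGRP-LC, which recruit the adaptor Imd. Imd joins Fadd and the caspase Dredd. Dredd cleaves Imd, ubiquitin chains are then built on it, and these chains bring in the kinase complex of Tak1 with Tab2, which activates the IkB kinase of ird5 and key. The end point is Relish, the product of Rel, an NF-kB precursor that Dredd cleaves so that its DNA-binding part enters the nucleus and drives antimicrobial peptide genes. Pirk, itself switched on by Relish, sits between receptor and Imd and damps the signal. The pathway is best known in fat body, gut and haemocytes.

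Depth was 62617114 to 77801818 counts in the tumour-bearing samples and 69920428 to 84149121 in the control samples. Library scaling matters for every fold change below. The composition (TMM) factors were 1.33 to 1.44 in the tumour-bearing samples and 0.630 to 0.841 in the control samples. When libraries were scaled by total counts alone, all genes had a median log2 fold change of 0.94, against 0.0067 with TMM, and the 8 genes moved up by 0.85 to 0.95. Most markers of the sampled tissue itself fell. Of 11 muscle markers, 8 were lower and 0 higher in the tumour-bearing samples (median log2 fold change -3.32). Not called were bt (log2 fold change -2.19), sls (-1.04) and Act87E (0.060). The summed level of the 11 muscle markers was 12740 to 18150 CPM in tumour-bearing samples and 39270 to 159500 CPM in control samples. CPM, here and below, are counts scaled to a common library size after TMM, not to total counts. Of 11 epidermis and cuticle markers, 8 were lower and 0 higher (median -2.48). Their summed level was 1405 to 1888 CPM in tumour-bearing samples and 127200 to 238600 CPM in control samples. In control samples this sum was led by the larval cuticle genes Lcp1 to Lcp4, with log2 fold changes of -6.92 to -11.9. The 3 not called were grh (log2 fold change -0.39), knk (-0.18) and the scarce Cpr47Ea (-0.52). The muscle, epidermis and cuticle markers differed between the same groups that every fold change below compares. Their part in the results and in the scaling was not tested. Fewer cells of a type and less RNA per cell cannot be told apart in such bulk samples. The test kept 10074 genes, of which 2393 (23.8%) passed as higher in tumour-bearing samples and 2320 (23%) as lower, by edgeR's quasi-likelihood test at an adjusted p under 0.05.

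The 8 genes did not move together. The NF-kB gene Rel and the IkB kinase gene ird5 rose in the cuticles of tumour-bearing larvae, by 3.07-fold and 1.75-fold. The caspase gene Dredd fell to 0.572 of the control level and the adaptor gene Fadd to 0.719. imd, Tab2, key and pirk did not pass the test. The count of 2 higher and 2 lower among 8 genes lies beside 46.8% of all genes called in either direction. Their median log2 fold change was 0.07, near that of all genes. The plot of normalized counts shows each gene in each sample. Normalized counts are raw counts divided by the TMM-scaled library size and multiplied by the mean of those sizes.

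**Figure D1:**
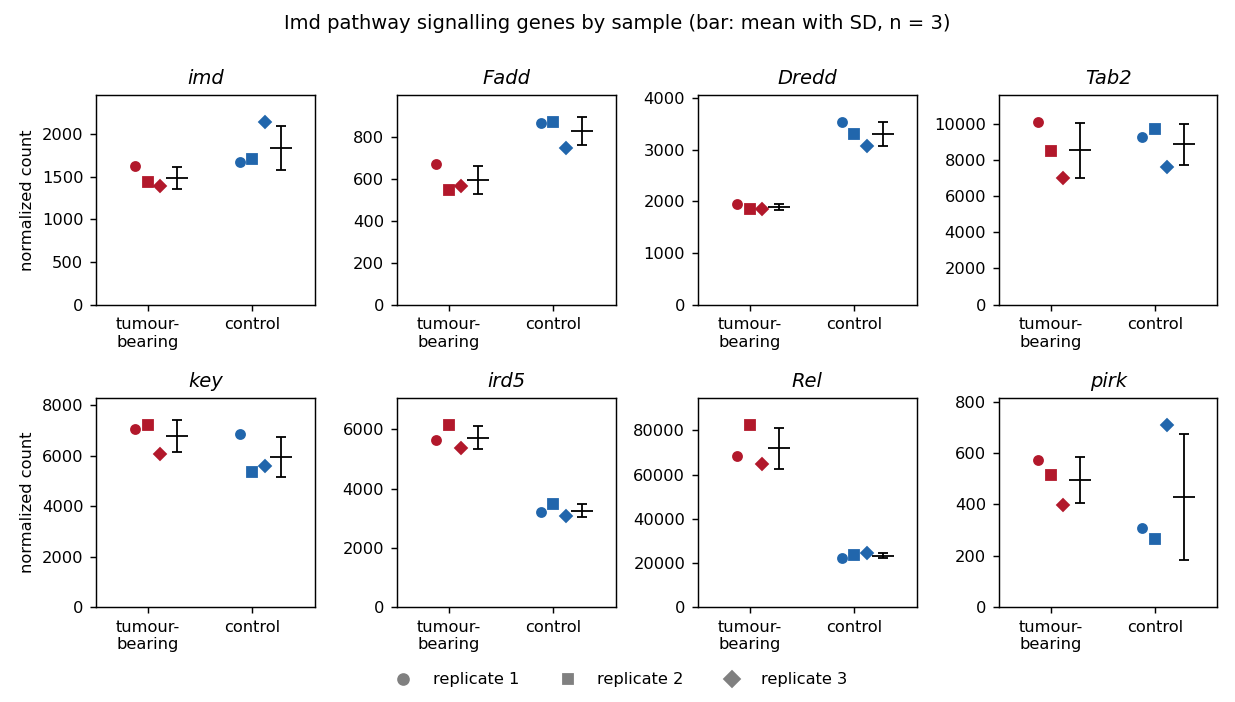
Normalized counts (vertical axis, linear from 0) of the 8 Imd pathway signalling genes in the 3 tumour-bearing (red, left) and 3 control samples (blue, right), with the mean and SD as a black bar. The groups do not overlap for Rel and ird5 (tumour-bearing above) or for Dredd, Fadd and imd (tumour-bearing below), and control replicate 3 stands apart for pirk.

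Of the receptor-proximal genes imd, Fadd, Dredd and pirk, transcripts of Fadd and Dredd passed as lower with TMM, and those of imd and pirk did not pass. imd (FBgn0013983), which encodes the death-domain adaptor that gives the pathway its name, lies on chromosome 2R from 18409796 to 18413599 on the minus strand (Ensembl annotation of BDGP6). It had 1627, 1435 and 1393 normalized counts in tumour-bearing replicates 1 to 3, against 1671, 1712 and 2135 in control replicates 1 to 3. Every tumour-bearing sample was below every control sample, but by a small margin between tumour-bearing replicate 1 and control replicate 1. Its log2 fold change of -0.31 (standard error 0.13, 95% interval -0.63 to 0.02) did not pass the test (edgeR, adjusted p = 0.103). Non-overlap of this kind was common, since 61.6% of all genes tested had groups without overlap, 29.7% with the tumour-bearing samples below and 31.9% with them above. Of the 8 genes, 5 had such groups, 3 below and 2 above.

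Fadd, on chromosome 3R from 22034455 to 22035617 on the plus strand, encodes the death-domain adaptor that links Imd to Dredd. It had 671, 547 and 564 normalized counts in tumour-bearing samples, against 864, 867 and 748 in control samples. The groups did not overlap. Its decrease was small (log2 fold change -0.48, standard error 0.13, edgeR adjusted p = 0.0275), and the call was not stable. It was lost without control replicate 1 (adjusted p = 0.0858), without control replicate 2 (adjusted p = 0.0642), without tumour replicate 2 (adjusted p = 0.101) and without tumour replicate 3 (adjusted p = 0.0902), with the sign kept in each. With upper-quartile factors it was lost too (log2 fold change -0.36, adjusted p = 0.0627).

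Dredd (FBgn0020381) lies on chromosome X from 633622 to 635545 on the minus strand and encodes the caspase-8-like protease that cleaves both Imd and Relish. It had 1960, 1856 and 1850 normalized counts in tumour-bearing samples and 3530, 3303 and 3067 in control samples. The tumour-bearing values were closely spaced, with a coefficient of variation of 3.26% against 7.02% in control samples, and all lay far below the lowest control value. Its log2 fold change was -0.81 (standard error 0.095, edgeR adjusted p = 0.00186). The call held without each sample in turn (log2 fold change -0.87 to -0.75).

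The direction of these 3 genes rests on the scaling. With total counts alone, the log2 fold change was 0.61 for imd (adjusted p = 0.0438), 0.47 for Fadd (adjusted p = 0.0339) and 0.13 for Dredd (adjusted p = 0.410), all positive. In that fit 6 of the 8 genes were called higher and 0 lower, beside 61.4% of all genes higher and 6.9% lower. Relative to the median of all genes under that scaling, the values were -0.33, -0.47 and -0.81.

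pirk (FBgn0034647), on chromosome 2R from 21660967 to 21662995 on the minus strand, encodes the feedback inhibitor that binds PGRP-LC and Imd. It was the least abundant of the 8 genes, with 573, 515 and 397 normalized counts in tumour-bearing samples and 309, 266 and 709 in control samples. Control replicate 3 was the highest of all 6 samples, and the other control samples were the lowest. With all samples, the log2 fold change of pirk was 0.21 (standard error 0.41, 95% interval -0.79 to 1.21, edgeR adjusted p = 0.697). Without control replicate 3 the log2 fold change was 0.76 (standard error 0.21) and passed the test (adjusted p = 0.0273), in a fit that called 25.1% of all genes higher and 24.7% lower. Without control replicate 2 it was -0.046 (adjusted p = 0.930). A single control library thus decided whether pirk was called.

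The excess of pirk in control replicate 3 was 1.30 on the log2 scale over the mean of control replicates 1 and 2, against -0.32 to 0.34 for the other 7 genes. The peptide genes that Relish is known to drive went both ways in that library, with 7 of 13 above the mean of the other control samples and 6 below. Their summed level was 27.2 CPM in control replicate 3 and 26.6 and 28.4 CPM in control replicates 1 and 2. DptA, a diptericin peptide gene, had 369 normalized counts there and 30.8 and 0 in control replicates 1 and 2, and DptB had 148 there and 13.8 and 0. PGRP-SC2, an enzyme that degrades peptidoglycan, had 168 normalized counts there and 4.61 and 11.2 in the other control samples. AttA went the other way, with 388 normalized counts there and 461 and 718 in control replicates 1 and 2, as did the drosocin gene Dro, with 386 there and 832 and 665. The midgut markers were high in it, with a summed level of 0.410 to 2.96 CPM in the tumour-bearing samples, against 42.6 CPM in control replicate 3 and 5.95 and 0.652 CPM in control replicates 1 and 2. Of these 10 markers 8 were above the mean of the other control samples there and 2, Mal-A1 and mag, below. They were led by the digestive protease gene Jon65Aiv, with 1938 normalized counts in control replicate 3, against 231 and 9.62 in the other control samples, and none of the 10 was at 0 in all samples. Fat body markers were highest there among the control samples, at 230 CPM against 44.2 and 120 CPM, with 7 of 8 above, and muscle markers lowest, at 39270 CPM against 99010 and 159500 CPM. The part of the midgut, fat body and muscle markers in the pirk values was not tested.

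Of the kinase-step genes Tab2, key and ird5, only ird5 passed the test. Tab2 (FBgn0086358), on chromosome 2R from 19292529 to 19304508 on the plus strand, encodes the ubiquitin-binding partner of Tak1. It had 10070, 8501 and 7010 normalized counts in tumour-bearing samples and 9278, 9715 and 7592 in control samples. The groups overlapped, with a log2 fold change of -0.055 (standard error 0.18, 95% interval -0.49 to 0.38, edgeR adjusted p = 0.814). Its sign turned to positive without control replicate 2 (0.0031), without tumour replicate 3 (0.068) and with upper-quartile factors (0.062).

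key (FBgn0041205), on chromosome 2R from 24785514 to 24787411 on the minus strand, encodes Kenny, the regulatory (IKK-gamma) subunit of the IkB kinase. It had 7071, 7222 and 6063 normalized counts in tumour-bearing samples and 6859, 5370 and 5608 in control samples. Control replicate 1 lay within the tumour-bearing range. The log2 fold change was 0.19 (standard error 0.14, 95% interval -0.15 to 0.53, edgeR adjusted p = 0.293). Tab2 and key did pass with total counts alone, at log2 fold changes of 0.89 (adjusted p = 0.00334) and 1.12 (adjusted p = 0.00190), which are -0.047 and 0.18 relative to the median of all genes.

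ird5 (FBgn0024222), on chromosome 3R from 16046347 to 16049421 on the minus strand, encodes the catalytic (IKK-beta) subunit of the same kinase. It had 5641, 6140 and 5365 normalized counts in tumour-bearing samples and 3197, 3496 and 3082 in control samples. The lowest tumour-bearing sample was well above the highest control sample. The log2 fold change was 0.81 (standard error 0.11, edgeR adjusted p = 0.00242), and it passed under all 14 alternatives (0.75 to 1.75). The annotation places a same-strand lncRNA over 8.08% of its exon bases, and its reads cannot be told from those of ird5 there.

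Rel stood out from the other genes in both abundance and change. The gene (FBgn0014018) lies on chromosome 3R from 9044183 to 9047977 on the minus strand, and no other annotated gene shares its exons. It had 68359, 82340 and 64575 normalized counts in tumour-bearing samples and 22072, 23520 and 24514 in control samples. The lowest tumour-bearing sample was far above the highest control sample, and the coefficient of variation was 13.0% in tumour-bearing samples and 5.25% in control samples. The log2 fold change was 1.62 (standard error 0.16, 95% interval 1.23 to 2.01, edgeR adjusted p = 0.00118). It passed under all 14 alternatives, with 1.51 to 1.69 when each sample was left out in turn and 2.54 with total counts alone. Of all genes tested, 9.71% had a higher log2 fold change.

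Most haemocyte markers moved in the same direction as Rel. Of 10 such markers, 8 rose and 0 fell, beside 23.8% of all genes higher and 23% lower. Their median log2 fold change was 1.95. NimC1 (log2 fold change -0.12) and PPO2 (-1.40) were not called. The summed level of the 10 markers was 4158, 2293 and 1557 CPM in tumour-bearing samples against 667, 1259 and 566 in control samples. Among the tumour-bearing samples this sum was highest in replicate 1, whereas Rel was highest in replicate 2. Fat body markers did not separate the groups, at 27.9 to 204 CPM in tumour-bearing samples and 44.2 to 230 in control samples, with 1 of 8 higher and 1 lower. The part of either cell type in the Rel values was not tested.

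**Figure D2:**
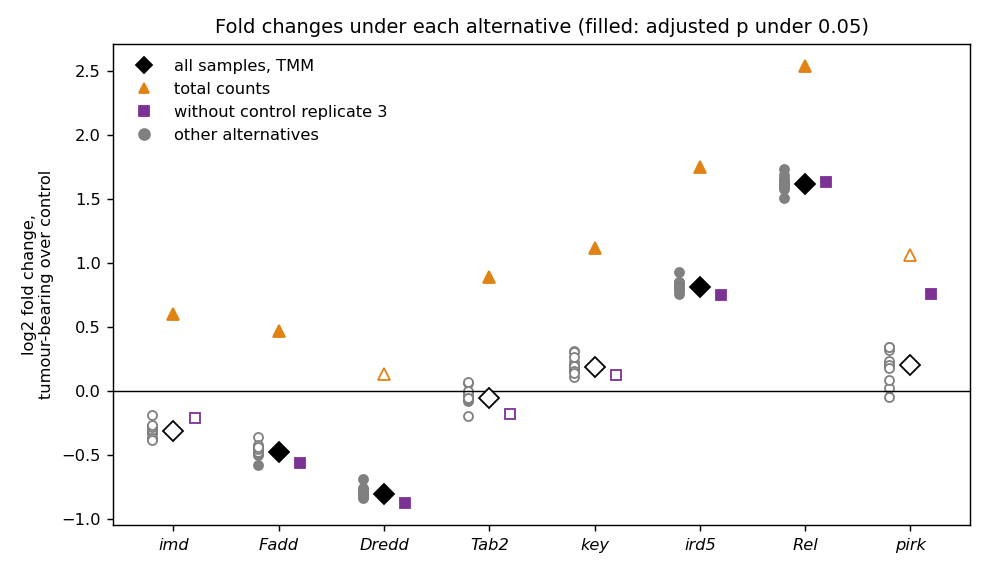
Log2 fold change (vertical axis) of each of the 8 genes with all samples and TMM (black diamonds), with total counts alone (orange triangles), without control replicate 3 (purple squares) and under the other alternatives (grey circles). Symbols are filled where the adjusted p was under 0.05. Total counts shift every gene upwards, Rel and ird5 are filled throughout, and pirk is filled only without control replicate 3.

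Levels were compared between genes as CPM per kilobase of exon, TMM scaled, with the union of all annotated exons as the length. In the tumour-bearing samples Rel was at 269 ± 35.1 (SD, n = 3), followed by key at 62.6 ± 5.82, ird5 at 30.1 ± 2.07, Tab2 at 28.1 ± 5.05, Dredd at 14.5 ± 0.473, imd at 12.8 ± 1.08, Fadd at 6.70 ± 0.760 and pirk at 3.52 ± 0.637. Only ird5 and Tab2, among neighbours in that order, overlapped. In the control samples Rel was at 87.6 ± 4.60 (SD, n = 3), followed by key at 54.9 ± 7.39, Tab2 at 29.2 ± 3.70, Dredd at 25.4 ± 1.78, ird5 at 17.2 ± 1.13, imd at 15.9 ± 2.22, Fadd at 9.32 ± 0.769 and pirk at 3.04 ± 1.74. Tab2 overlapped Dredd there, and ird5 overlapped imd. The order of Dredd and ird5 was thus opposite in the groups, with ird5 above Dredd in every tumour-bearing sample and Dredd above ird5 in every control sample. With the longest transcript as the length, Tab2 was at 33.8 in tumour-bearing and 35.2 in control samples, and stood above ird5 in both groups.

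**Figure D3:**
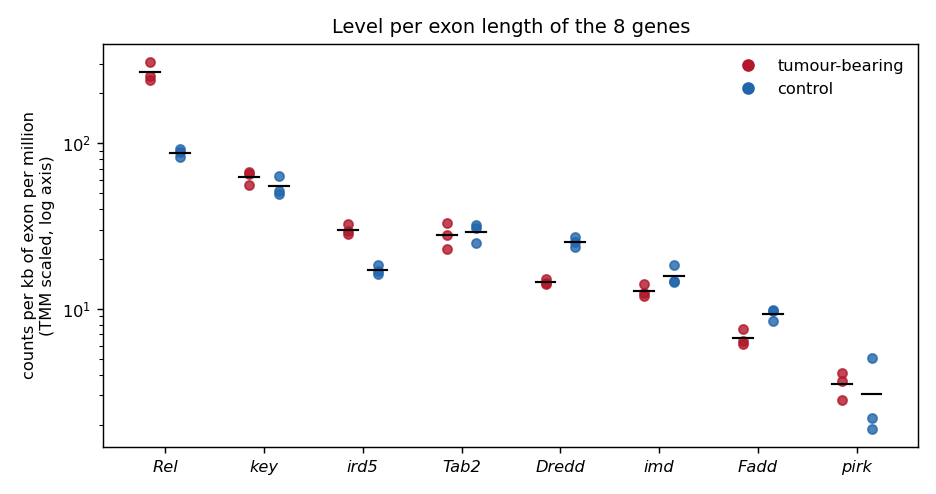
Level of each gene per exon length (vertical axis, log scale, CPM per kilobase, TMM scaled) in the 3 tumour-bearing samples (red, left of each pair) and 3 control samples (blue), with group means as black lines. Rel lies at the top and pirk at the bottom in both groups, and ird5 and Dredd change places.

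The 8 genes together took 0.175%, 0.189% and 0.165% of all counts in tumour-bearing samples and 0.0444%, 0.0399% and 0.0523% in control samples. These shares are of total counts, without TMM, and so carry the upward shift of that scaling. With TMM, the summed normalized counts were 95971, 108555 and 87216 in tumour-bearing samples. They were 47781, 48249 and 47454 in control samples. Rel made up 71.2% to 75.8% of their counts in tumour-bearing samples and 46.2% to 51.7% in control samples. Without Rel, the sum of normalized counts was 22642 to 27612 in tumour-bearing samples and 22940 to 25709 in control samples, and the groups overlapped.

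Ratios between 2 genes of the same library need no library scaling, so 6 of them were compared, as ratios of counts per kilobase of exon. With 3 samples against 3 the exact permutation test (two-sided) cannot go below p = 0.1, and no ratio could pass 0.05. Rel over key was 3.93, 4.63 and 4.33 in tumour-bearing samples and 1.31, 1.78 and 1.77 in control samples. That is a difference of 1.42 on the log2 scale, with no overlap (exact permutation p = 0.1, 0.15 adjusted over 6 ratios). key over ird5, the regulatory over the catalytic subunit of the same kinase, was 2.19, 2.06 and 1.98 in tumour-bearing samples, against 3.76, 2.69 and 3.19 in control samples. The log2 difference was -0.62, again with no overlap and the same exact p. Dredd over Fadd was 1.99, 2.31 and 2.23 in tumour-bearing samples and 2.78, 2.59 and 2.79 in control samples, a log2 difference of -0.32 with no overlap and the same exact p.

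pirk over imd, the inhibitor over the adaptor it binds, was 0.290, 0.295 and 0.234 in tumour-bearing samples and 0.152, 0.128 and 0.273 in control samples. Control replicate 3 lay inside the tumour-bearing range (log2 difference 0.64, exact permutation p = 0.2, and 0.96 without control replicate 3). Rel was also set against the NF-kB factors of the Toll pathway. Rel over dl was 8.62, 7.46 and 5.11 in tumour-bearing samples and 3.07, 4.41 and 5.04 in control samples, without overlap but by a narrow margin (log2 difference 0.75, exact permutation p = 0.1). Rel over Dif was 47.9, 53.7 and 36.1 in tumour-bearing samples and 30.4, 23.96 and 41.1 in control samples, and the groups overlapped (log2 difference 0.54, exact permutation p = 0.2).

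**Figure D4:**
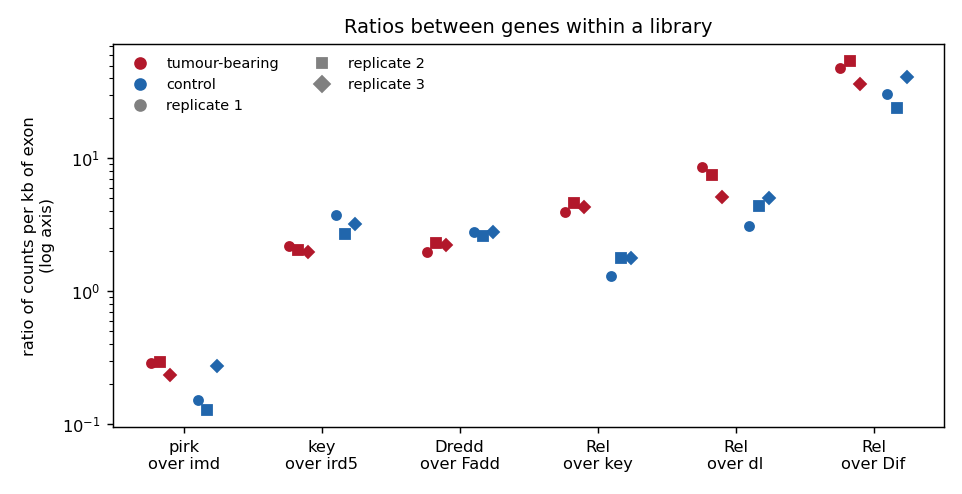
Ratios of counts per kilobase of exon between pairs of genes (vertical axis, log scale) within each tumour-bearing (red, left) and control library (blue, right), with the replicate number as the marker shape. Rel over key, key over ird5 and Dredd over Fadd separate the groups, whereas control replicate 3 overlaps the tumour-bearing samples for pirk over imd and Rel over Dif.

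The remaining genes of the pathway were counted from lists of receptors, ubiquitin and kinase steps, negative regulators and Rel co-factors, each to be read beside the 23.8% of all genes called higher and 23% called lower. Of 3 receptors, 2 rose and 0 fell. PGRP-LC, the main transmembrane receptor, had 9567, 10663 and 9036 normalized counts in tumour-bearing samples and 5463, 6533 and 6574 in control samples, without overlap (log2 fold change 0.66, standard error 0.13, edgeR adjusted p = 0.00901). PGRP-SD, a secreted recognition protein, was scarce, with 87.3 to 236 normalized counts in tumour-bearing samples and 30.5 to 72.3 in control samples. Its log2 fold change of 1.64 (standard error 0.50, edgeR adjusted p = 0.0383) was not called without control replicate 1 or 2, nor without tumour replicate 2 or 3 (adjusted p of 0.0875 to 0.112 in these 4).

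Of 5 genes of the kinase and ubiquitin steps, 1 rose and 2 fell. Tak1, the kinase that Tab2 partners, had 10183, 10654 and 9871 normalized counts in tumour-bearing samples and 6166, 6158 and 6665 in control samples, with no overlap (log2 fold change 0.69, standard error 0.10, edgeR adjusted p = 0.00343). Uev1A, a ubiquitin-conjugating enzyme variant that builds the chains on Imd, had 11069, 11141 and 11258 normalized counts in tumour-bearing samples and 18946, 19402 and 17701 in control samples (log2 fold change -0.74, standard error 0.11, edgeR adjusted p = 0.00378). It was 0.20 with total counts alone. eff, the UbcD1 conjugating enzyme, fell by 0.47 on the log2 scale (standard error 0.13, edgeR adjusted p = 0.0272). That call was lost without control replicate 1 (adjusted p = 0.0906) and without each tumour-bearing sample in turn (0.0665, 0.0988 and 0.0976 for replicates 1, 2 and 3), and with total counts the value was 0.46.

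Among 14 genes listed as negative regulators, apart from pirk, 12 were tested. Of these 4 rose and 0 fell, beside 23.8% of all genes higher and 23% lower, and the median log2 fold change was 0.16. zfh1, a transcriptional repressor that damps Imd output, rose most (log2 fold change 2.36, standard error 0.20, edgeR adjusted p = 0.000857). PGRP-LF, a decoy receptor that blocks PGRP-LC, had 6345, 5550 and 4104 normalized counts in tumour-bearing samples and 826, 1851 and 1708 in control samples (log2 fold change 1.87, standard error 0.34, edgeR adjusted p = 0.00773). Its exons overlap those of UGP on the opposite strand, and the library kit does not mark strand. PGRP-LB, an amidase that degrades peptidoglycan, had 6415, 7273 and 4836 normalized counts in tumour-bearing samples and 2193, 1800 and 1447 in control samples (log2 fold change 1.77, standard error 0.22, edgeR adjusted p = 0.00222). dnr1, a ubiquitin ligase that restrains Dredd, had 12106, 17725 and 14987 normalized counts in tumour-bearing samples and 4787, 4857 and 5418 in control samples, far apart (log2 fold change 1.57, standard error 0.17, edgeR adjusted p = 0.00151). The other tested genes of this list, casp, scny, CYLD, POSH, trbd, nub, Charon and PGRP-SC2, did not pass. Neither of the 2 Rel co-factors passed, with akirin at a log2 fold change of -0.30 (standard error 0.13, edgeR adjusted p = 0.0992, but 0.0250 with DESeq2). With total counts akirin was at 0.62.

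**Figure D5:**
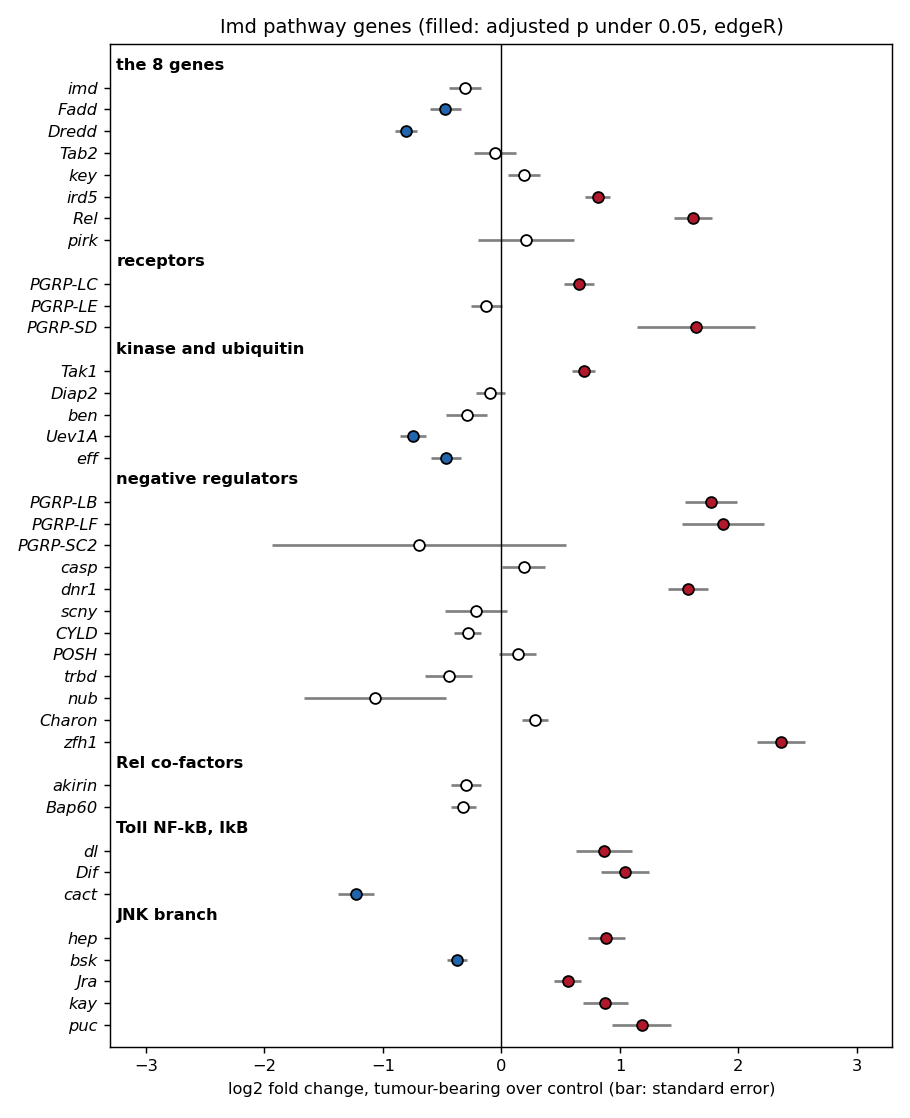
Log2 fold change, tumour-bearing over control (horizontal axis, bars are standard errors), of the 8 genes and the other tested genes of the Imd pathway, of the NF-kB factors and the IkB of the Toll pathway and of the JNK branch. Filled symbols passed the test at an adjusted p under 0.05 (red higher, blue lower), and open symbols did not.

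Of 13 antimicrobial peptide genes that Relish is known to drive, 12 were tested, of which 4 rose and 0 fell, again beside 23.8% and 23% of all genes, with a median log2 fold change of 2.45. The attacin genes AttA (log2 fold change 3.53, standard error 0.55, edgeR adjusted p = 0.00454) and AttB (2.69, standard error 0.55, edgeR adjusted p = 0.0105) led by abundance. AttA had 5253, 10088 and 2750 normalized counts in tumour-bearing samples, against 461, 718 and 388 in control samples. AttC and CecC also rose (log2 fold changes of 5.41 and 6.20). In the control samples their raw counts were only 0, 4 and 2 for AttC and 0, 4 and 3 for CecC. The AttC call was lost without control replicate 1 (edgeR adjusted p = 0.0511) and with replicate number as a block (edgeR adjusted p = 0.0570). The drosocin gene Dro, with 542, 736 and 512 normalized counts in tumour-bearing samples and 832, 665 and 386 in control samples, did not pass. Log2 fold changes of the 8 peptide genes that did not pass, Dro among them, ranged from -0.22 to 4.34.

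Tak1 also feeds the JNK kinase cascade, of whose 5 listed genes 4 rose and 1 fell, beside 46.8% of all genes called in either direction (23.8% higher, 23% lower). puc, a phosphatase and JNK target, rose (log2 fold change 1.18, standard error 0.25, edgeR adjusted p = 0.0112), as did hep, the gene of the kinase that activates JNK (0.88, standard error 0.16, edgeR adjusted p = 0.00657). bsk, which encodes JNK itself, fell by 0.37 on the log2 scale (standard error 0.087, edgeR adjusted p = 0.0159), a call lost without control replicate 1 (adjusted p = 0.0611) and without each tumour-bearing sample in turn (0.0564, 0.0611 and 0.0521 for replicates 1, 2 and 3), and a value of 0.56 with total counts. In the Toll pathway Dif rose (log2 fold change 1.04, standard error 0.21, edgeR adjusted p = 0.00925), as did dl (0.86, standard error 0.24, edgeR adjusted p = 0.0279), and cact, the IkB that holds them, fell by 1.23 on the log2 scale (standard error 0.15, edgeR adjusted p = 0.00205). The dl call was lost without control replicate 2 or 3 (adjusted p = 0.0858 and 0.0544) and without tumour replicate 2 or 3 (0.0869 and 0.0845). That of cact was lost with total counts.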

How the data were processed

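The authors deposited 1 table with raw read counts per gene and sample, which were used for every test, and beside them a normalized signal, each deposited column being the count divided by 1 constant per sample, which was used only for that check. The table also holds the authors' means and comparison columns (fold changes and p-values), which were not used. The submitters' processing notes list TopHat and Bowtie, HTSeq, DESeq2, FastQC and bcl2fastq, with BDGP6 as the build, and no versions or settings are given in the sources used here. The kit does not mark strand.

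Groups were compared with the robust quasi-likelihood test of edgeR 4.0.16 (R 4.3.3) on the counts, after filterByExpr and TMM, with p-values of the 10074 genes kept adjusted by Benjamini-Hochberg and called at 0.05. A standard error is the coefficient over the root of its F value. The procedure was tested on simulated counts with 200 genes changed, in both directions. That simulation held no shift of composition, so it could not test the scaling. Other settings tried were DESeq2 1.42.0, RLE or upper-quartile factors, total counts alone, a replicate block, no filter, a filter of 10 counts per sample, removal of the 20 most abundant genes, and removal of each sample in turn. Exon lengths and coordinates came from the Ensembl annotation of BDGP6. The members, lists and rules were chosen with earlier results of these data known. Named genes are the members and, of each other list, those past the test (2 per direction where more than 4 passed) or else the most abundant. DptA, DptB, PGRP-SC2, Jon65Aiv, Mal-A1, mag and Dro were chosen after their values were seen. Likeness to Rel was the Euclidean distance of centred log2 CPM with a prior count of 2.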

Additional observations from a re-analysis of the deposited data

How the results depend on the processing

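Calls of the 8 genes rested most on the scaling. With total counts, 6 of them were called higher and 0 lower, the other listed pathway, JNK, Toll and caspase genes gave 33 and 0, against 17 and 6 with TMM, and all genes gave 6189 and 695. Under that scaling the signs of imd (0.61), Fadd (0.47), Dredd (0.13), Tab2 (0.89), Uev1A (0.20), eff (0.46), akirin (0.62), bsk (0.56) and Drice (0.40) turned, and key was called at 1.12. With upper-quartile factors 1 member was lower, Fadd was not called at -0.36, and Tab2 turned to 0.062. The labels do not say whether the replicate numbers pair the samples. Deviations of same-numbered samples correlated at -0.0547, 0.0668 and 0.109, and those of differently numbered samples at -0.129 to 0.14. Such correlations cannot settle whether the samples were paired. With the replicate block, 1 member, Dredd, was lower, Fadd was not called (-0.48, adjusted p = 0.0581), 3 of the other listed genes were lower, and 1907 of all genes were higher and 1665 lower, against 2393 and 2320 without it. With each sample left out in turn, 2 to 3 members were called higher and 1 to 2 lower, 14 to 21 of the other listed genes higher and 3 to 9 lower, and 1675 to 2590 of all genes higher and 1380 to 2548 lower (1380 without tumour replicate 2). Log2 fold changes then ranged over -0.58 to -0.42 for Fadd, -0.20 to 0.068 for Tab2 and -0.046 to 0.76 for pirk. For the 6 ratios, leaving out samples was an alternative chosen after seeing the data, and it turned none of them, and a ratio without length gives the same difference. RLE factors, DESeq2, both other filters and leaving out the 20 most abundant genes changed no call of the 8 genes.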

Other observations

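Dredd was also set beside the other 6 caspase genes of the table, of which 5 were tested. None rose and 2 fell, beside 23.8% of all genes higher and 23% lower, and the median log2 fold change was -0.52. Strica, a caspase with a long prodomain, had 1025, 981 and 1050 normalized counts in tumour-bearing samples and 2119, 2053 and 2048 in control samples (log2 fold change -1.03, standard error 0.08, edgeR adjusted p = 0.000790, not called with total counts). Of its 2720 exon bases, 385 overlap Pngl on the opposite strand. Drice, an effector caspase, fell by 0.52 on the log2 scale (standard error 0.11, edgeR adjusted p = 0.0129), a call lost without tumour replicate 3 (adjusted p = 0.0512). By counts per exon length, Dredd made up 15.3%, 14.2% and 15.3% of all caspase transcripts in tumour-bearing samples and 19.4%, 18.9% and 12.5% in control samples. Control replicate 3 was the lowest there, as the initiator caspase Dronc took 40.3% in that library and 23.98% and 18.6% in the other control samples. Among the NF-kB genes, Rel made up 88.0%, 86.7% and 81.7% of transcripts in tumour-bearing samples and 73.6%, 78.8% and 81.8% in control samples, and the groups overlapped.

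The 5 genes whose profile over the 6 samples lay nearest to that of Rel, by Euclidean distance of centred log2 CPM among 10073 other genes, were Cyp4ae1 (distance 0.109), a cytochrome P450, jet (0.140), an F-box protein of the circadian clock, CG17264 (0.151), abba (0.203) and CG5524 (0.222). Their log2 fold changes were 1.57, 1.69, 1.65, 1.72 and 1.76. Likeness to Rel in fold change and sample order follows from how these genes were chosen. Cyp4ae1 had 575, 656 and 508 normalized counts in tumour-bearing samples and 188, 197 and 201 in control samples, with tumour replicate 2 the highest and control replicate 1 the lowest, as for Rel.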
